A study of Mus musculus with 3 samples.

Results

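T cells that came through a fluorescence-activated sort for conventional dendritic cells (cDCs) made up 177 of the 30209 barcodes in 3 single-cell RNA libraries from mouse tumours. They were chosen by their counts of RNA molecules, each read as a unique molecular identifier (UMI). A barcode had to show 800 or more genes, hold under 10% of its UMIs in mitochondrial genes and be absent from the study's list of type 1 cDCs (cDC1s). It also had to carry at least 1 UMI of *Cd3e* and at least 1 of *Cd3d* plus *Cd3g*, the genes of the invariant chains that carry T cell receptor signals to the inside of the cell. Finally, 5 genes of other cells had to be at 0. These were the NK cell receptor genes *Ncr1* and *Klrb1c*, the cDC1 chemokine receptor gene *Xcr1*, the lectin gene *Cd209a* and the macrophage complement gene *C1qa*.

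The study sorted cDC1s, type 2 cDCs (cDC2s) and their precursors from tumours of MCA205 LA OVA, a transplantable mouse fibrosarcoma line that expresses the model antigen OVA. There was 1 library of wild-type (WT) mice, 1 of mice lacking secreted gelsolin (*sGsn-/-*) and 1 of mice lacking both secreted gelsolin and *Clec9a* (*sGsn-/- Clec9a-/-*). The labels name no treatment, age or time point for any group. The 3 libraries shared the tumour line, the enzyme digestion, the Percoll enrichment of leukocytes, the sort gates and the droplet assay. Several sorters ran in parallel, which of them took which genotype is not given in the labels, and an effect of the sorter was not tested. Mice of both sexes were pooled within each genotype, so no value below has a spread between mice and no test was made between genotypes.

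Secreted gelsolin cuts and clears actin filaments outside cells, and *Clec9a* encodes DNGR-1, a receptor by which cDC1s sense the actin of dead cells. Antigen that cDC1s take up is shown to CD8 T cells, which can kill tumour cells. The sort removed cells with CD3e or NK1.1 at the surface and kept cells with CD11c and MHC class II, so the barcodes described here had passed a gate meant to leave T cells out.

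The WT library held 34 T cells among 12763 barcodes, 0.266% with an exact Clopper-Pearson 95% interval of 0.185% to 0.372%. In the *sGsn-/-* library they numbered 75 of 8173, or 0.918% (0.722% to 1.15%). The *sGsn-/- Clec9a-/-* library held 68 of 9273, or 0.733% (0.570% to 0.929%). The WT share was the lowest and its interval did not overlap either of the others, while those of the 2 gelsolin-deficient libraries overlapped each other. All intervals cover counting error only, so with 1 library per genotype they do not show a difference between genotypes. Because the gate was meant to remove T cells, these shares describe what passed it, and T cell numbers in the tumours were not measured. NK cells, gated by at least 1 UMI each of *Ncr1* and *Klrb1c* with the 3 *Cd3* genes, *Xcr1*, *Cd209a* and *C1qa* at 0, also passed the sort, with 547, 834 and 585 barcodes in the same order. For every 100 NK-gated barcodes, WT thus gave 6.22 T cells, *sGsn-/-* gave 8.99 and *sGsn-/- Clec9a-/-* gave 11.6.

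T cells were shallower than the cells the sort was made for. Their median was 6481 UMIs and 2069 genes, against 8075.5 UMIs in NK-gated barcodes and 13568 UMIs in the 5715 listed cDC1s that passed the same barcode filters. By library, the T cells summed to 334019 UMIs in WT, 683548 in *sGsn-/-* and 526941 in *sGsn-/- Clec9a-/-*. With sums of this size, 3 UMIs correspond to 8.98, 4.39 and 5.69 CPM (UMIs of a gene scaled to a common UMI sum), so levels below these rest on fewer than 3 UMIs. Barcode sequences recur between libraries at a low rate, with 26, 28 and 27 shared by the 3 pairs of libraries. Of the T cell barcodes, 2 were among those shared by WT and *sGsn-/-*, 1 among those shared by the gelsolin-deficient libraries and 0 among the rest, and none was a T cell in its second library.

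The *Cd3* thresholds had many barcodes close to them. Inside the gate, 25 T cells held exactly 1 UMI of *Cd3e*, and the 3 *Cd3* genes together ranged from 2 to 73 UMIs with a median of 20. Just outside, 5 barcodes had *Cd3e* without *Cd3d* or *Cd3g*, and 73 had *Cd3d* or *Cd3g* without *Cd3e*, with a median of 1 *Cd3* UMI. Requiring only 1 *Cd3* UMI of any of the 3 genes would give 255 T cells in place of 177, and requiring 3 would give 176. The lowest gene number inside was 808, and 1 barcode with 528 genes met every other condition. The highest mitochondrial share inside was 9.19%, and 6 barcodes at 10% or more would otherwise have been included. The requirement of 0 UMIs for 5 genes was the step that mattered most to the count. It set aside 190 barcodes, 47 of them for a single UMI, and without it the T cells would have numbered 367. Of 59 barcodes left out by *Ncr1* or *Klrb1c* alone, 20 held *Cd8a* or *Cd8b1* and 21 held *Trdc*, the constant segment of the delta receptor chain.

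The label was checked mostly against genes that had no role in the choice. The *Cd3* genes themselves are no evidence, since the T cells were selected on them. *Trac* (ENSMUSG00000076928, chromosome 14, 54220521 to 54224206, plus strand of GRCm38), the constant segment of the alpha receptor chain, was seen in 89.8% of T cells. Its share was 16.7% in NK-gated barcodes and 1.14% in cDC1s. After every cell was thinned to 2673 UMIs the same shares were 68.5%, 5.97% and 0.213%. At least 1 UMI of *Trac*, *Trbc1* or *Trbc2* was found in 176 of the 177, but also in 93.2% of NK-gated barcodes, so this sets T cells apart from cDC1s (4.99%) more than from NK cells. Among marker lists of other cells, those of neutrophils and erythroid cells had no UMI in T cells. The fibroblast and mast cell lists each had 1 gene of 6 with any, and for B cells *Ms4a1*, *Pax5* and *Ebf1* were at 0 while 3 of 7 genes had UMIs, summing to 50.9, 74.6 and 56.9 CPM in WT, *sGsn-/-* and *sGsn-/- Clec9a-/-* and led by *Ighm* at 53.5 CPM.

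Lists of other cells were not all empty in T cells. Some of their genes were at 0 by the choice itself, which lowers the sums. These were *Ncr1* and *Klrb1c* for NK cells, *C1qa* for macrophages, *Xcr1* for cDC1s and *Cd209a* for cDC2s. The monocyte and macrophage list reached 1718, 1428 and 1917 CPM, of which *Ly6c2* alone gave a mean of 1234 CPM. *Ly6c2* encodes a surface protein also carried by memory CD8 T cells, and its sequence is close to that of *Ly6c1*, so the assignment of its reads is uncertain. The NK cell list came to 1434, 1533 and 1053 CPM, led by the granzyme gene *Gzma* at 1172 CPM. Plasmacytoid markers summed to 440.1, 437 and 298 CPM and were led by *Bst2*, an interferon-induced gene, at 315 CPM. The list of type 2 innate lymphoid cells gave 62.9, 184 and 121 CPM, with *Areg* in front at 49.4 CPM and *Il5* at 0. Markers of cDC1s summed to 296, 328 and 165 CPM, led by *Irf8* at 130 CPM, and those of cDC2s to 126, 178 and 137 CPM, led by *Itgax* at 52.4 CPM. Activated cDC markers gave 24.0, 195 and 39.9 CPM.

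A small set of T cell barcodes was rich in MHC class II transcripts. *H2-Aa*, *H2-Ab1*, *H2-Eb1* and *Cd74*, which encode the class II chains and their chaperone, took 1.70% to 4.62% of the UMIs in 16 T cells, and the next lower value was 0.922%, while the median of cDC1s was 4.71%. The threshold of 1% between them was chosen after the data were seen. These 16 barcodes, 3 in WT, 9 in *sGsn-/-* and 4 in *sGsn-/- Clec9a-/-*, had a median of 21542 UMIs, against 6126 in the other 161. Of the 16, 12 were among the 6% of barcodes with the highest doublet score in their library. A mixed barcode of a T cell and a dendritic cell cannot be told apart by these counts from a T cell with such transcripts of its own. All 177 barcodes were kept, and some results are also given without the 16. Without them, the cDC1 list fell to 101, 92.7 and 88.3 CPM, *Clec9a* had no UMI in the remaining T cells, and the 4 class II genes summed to 1139.5, 1189.5 and 954 CPM in place of 6185, 9179 and 4763 CPM. The cDC2 list then gave 112, 36.3 and 88.3 CPM and the activated cDC list 25.3, 52.4 and 46.4 CPM, so both fell most in *sGsn-/-*. All NK-gated barcodes together, class II rich ones included, had 2685, 2369 and 2172 CPM of the same 4 genes. Of these barcodes 2.85% were past 1%, against 9.04% of T cells.

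**Figure D1:**
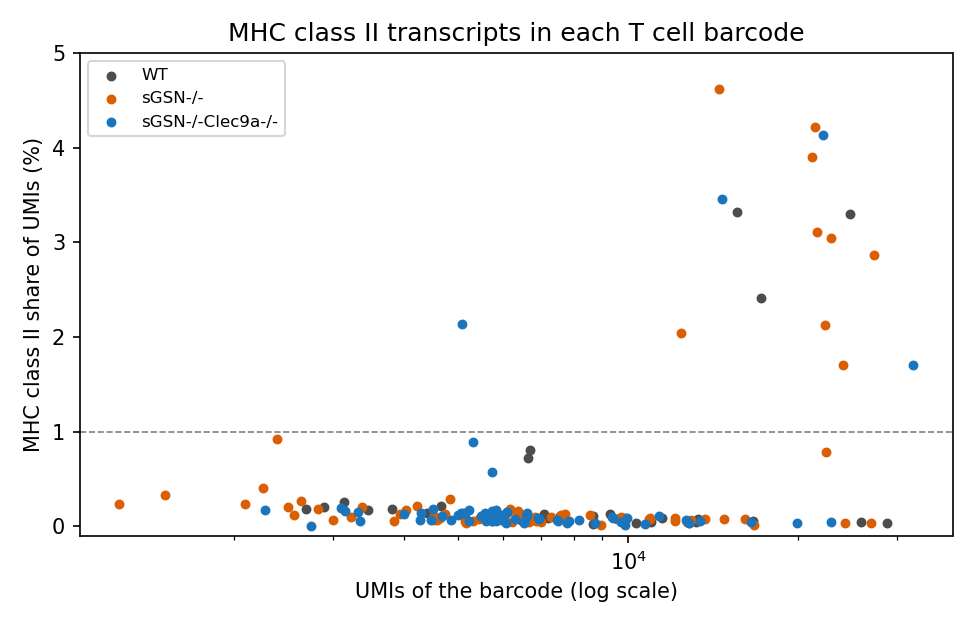
Share of UMIs in *H2-Aa*, *H2-Ab1*, *H2-Eb1* and *Cd74* (%, vertical axis) against the UMIs of the barcode (log scale, horizontal axis) for each of the 177 T cells, coloured by library. The dashed line marks 1%, above which 16 barcodes lie at 1.70% to 4.62%.

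CD8 T cells formed most of the population in every library. A T cell was called CD8 when it held *Cd8a* (ENSMUSG00000053977, chromosome 6, 71373427 to 71379173, plus strand) or *Cd8b1* (ENSMUSG00000053044, chromosome 6, 71322788 to 71337494, plus strand) and no *Cd4*. It was called CD4 when it held *Cd4* (ENSMUSG00000023274, chromosome 6, 124864692 to 124888221, minus strand) and neither *Cd8* gene. In WT, 28 of 34 were CD8, or 82.4% (65.5% to 93.2%). In *sGsn-/-* the number was 55 of 75, or 73.3% (61.9% to 82.9%). In *sGsn-/- Clec9a-/-* it was 56 of 68, or 82.4% (71.2% to 90.5%). The 3 intervals overlapped, and whether the genotypes differ in the CD8 share was not tested.

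CD4 T cells were few, with 1 in WT, 6 in *sGsn-/-* and 1 in *sGsn-/- Clec9a-/-*, together 4.52% (1.97% to 8.71%) of the T cells. *Cd4* and both *Cd8* genes were absent from 28 T cells, 15.8% (10.8% to 22.0%) of all, with 4, 14 and 10 in the same order of libraries, and 2 T cells held both. Depth bears on the CD4 call, since 8 cells held 17 *Cd4* UMIs between them. With all cells thinned to 2673 UMIs, which kept 168, the CD4 share was 1.79%, and with 2 UMIs required it was 1.69%. The share with neither gene was 23.2% after thinning, and the CD8 share 74.4%. In cDC1s, at a median of 13568 UMIs against 6481 in T cells, 0.280% held *Cd4*, 1.47% held *Cd8a* and 0.245% held *Cd8b1*. After thinning, these background shares were 0.0888%, 0.373% and 0.0710%.

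**Figure D2:**
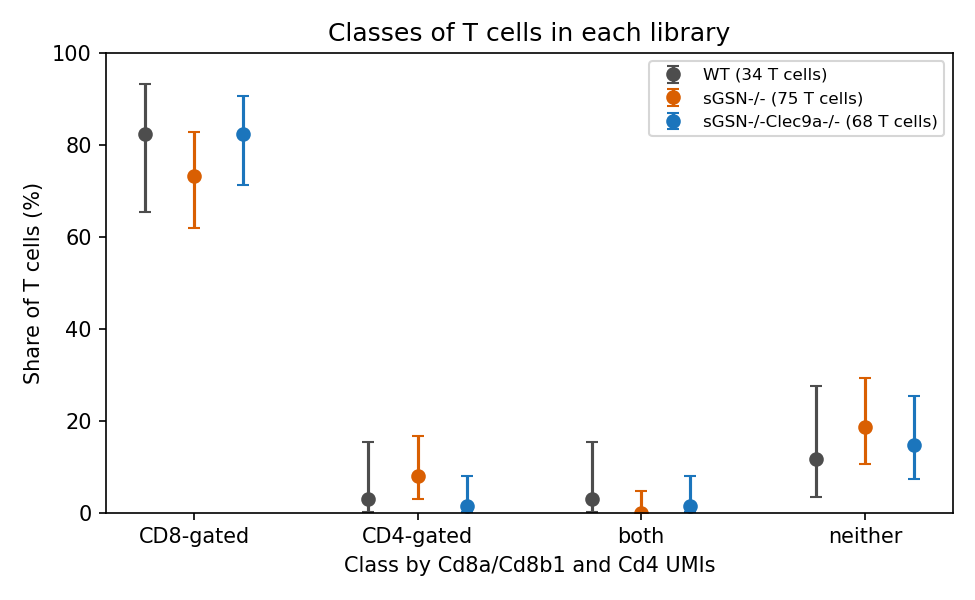
Share of T cells (%, vertical axis) that were CD8, CD4, both or neither in each library, with bars for exact Clopper-Pearson 95% intervals. CD8 T cells made up 82.4%, 73.3% and 82.4% in the WT, *sGsn-/-* and *sGsn-/- Clec9a-/-* libraries.

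T cells were compared with NK cells because both are lymphocytes that can kill tumour cells and both passed the sort. UMIs were summed per library in each population, and the 3 libraries served as replicates in edgeR. The gates of the 2 populations are set on opposite readings of the *Cd3* genes and of *Ncr1* and *Klrb1c*, so genes that travel with these had to differ, and an adjusted p describes how alike the libraries were. Of 9509 genes tested, 710 were higher in T cells (7.47%) and 566 were lower (5.95%) at an adjusted p under 0.05, and the median log2 fold change of all genes was −0.01. The gate genes were left out of these counts. The *sGsn-/-* library weighed most on the count: 556 genes were called without it, 944 without WT and 946 without *sGsn-/- Clec9a-/-*. Cells thinned to equal depth gave 561. The balance turned without the filter on low counts, with 862 higher and 906 lower of 16783 genes.

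Genes of the T cell receptor and its signalling chain were mostly higher in T cells. Of 20 tested, 16 were higher in T cells and 0 lower, with a median log2 fold change of 1.19. *Trac* stood at 500.0, 468 and 528 CPM in T cells of the WT, *sGsn-/-* and *sGsn-/- Clec9a-/-* libraries and at 20.2, 22.3 and 20.9 CPM in NK-gated barcodes. The lowest T cell value was far above the highest NK value, with a log2 fold change of 4.51 (SE 0.12, edgeR adjusted p 3.5e-13), higher in 3 of 3 libraries. *Trbc2*, a constant segment of the beta chain, had 1389, 1166 and 1478 CPM against 227, 201 and 195 CPM, and the fold change was 2.65 on the log2 scale (SE 0.13, adjusted p 2.3e-10, higher in 3 of 3 libraries). The other constant segment, *Trbc1*, is also transcribed by NK cells and was closer, at 733.5, 594 and 624 CPM against 422, 419 and 398 CPM. Its log2 fold change was 0.60 (SE 0.11, adjusted p 0.00098), higher in 3 of 3 libraries.

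*Themis*, which tunes receptor signals in T cells, had 102, 96.6 and 75.9 CPM in T cells and no UMI in NK-gated barcodes, so it was at least 621-fold higher with 3 UMIs over the NK group as the floor. *Cd5*, a brake on receptor signalling, reached 92.8, 139 and 64.5 CPM against 0.310, 0.221 and 0 CPM (log2 fold change 8.76, SE 0.40, adjusted p 1.3e-10, higher in 3 of 3 libraries). The related receptor gene *Cd6* was at 98.8, 135 and 89.2 CPM in T cells and at most 1.40 CPM in NK-gated barcodes. The adaptor gene *Lat* and the lineage factor gene *Bcl11b* were named after their values were seen. *Lat* gave 335, 307 and 279 CPM against 22.8, 19.4 and 20.3 CPM, and *Bcl11b* 117, 142 and 112 CPM against 2.17, 1.21 and 1.99 CPM. *Cd8a*, which chose the CD8 class but not the T cells, had 386, 306 and 328 CPM against 0.621, 0.551 and 0 CPM. *Cd8b1* was at 826, 591 and 719 CPM in T cells against 0.155, 4.96 and 0.995 CPM. Less studied genes among the 10 largest differences were *Gm8369*, at 177, 135 and 120 CPM against at most 0.796 CPM, and *Fam169b*, with 62 UMIs in T cells and 1 in NK-gated barcodes. The latter counts give an 824-fold ratio with a counting interval of 143 to 33083. *Esm1*, with 17 UMIs against 0, was at least 75.4-fold higher.

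Genes of the Ly49 family of NK receptors marked the other side. *Klra8* had 1 UMI in all T cells and 288, 297 and 349 CPM in NK-gated barcodes, a 474-fold difference in counts with an interval of 85.0 to 18716. Genes of this family are near-identical, so the assignment of reads among them is uncertain. *Klra5*, of the same family, had no UMI in T cells and was at least 10.8-fold lower. Also at 0 in T cells were *Sema4c*, *Pdgfa*, *Cma1*, *Gstm1*, *Phactr3*, *Vegfc*, *Rgl1* and *Eya1*, with bounds between 7.24-fold and 12.8-fold. These encode a semaphorin, a growth factor, a mast cell protease, a glutathione transferase, a phosphatase regulator, a growth factor of lymph vessels, an exchange factor and a transcription regulator. *Trdv4*, a delta chain segment transcribed in NK cells, gave 12.0, 8.78 and 19.0 CPM in T cells against 45.5, 45.6 and 37.4 CPM.

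Genes of the effector and cytotoxic list were more often called lower than higher in T cells. In this list of 21 genes, 3 were higher and 10 lower, with a median log2 fold change of −0.20. Of the lower genes, *Gzma*, *Gzmc* and *Prf1* encode granule proteins. The others were the chemokine genes *Ccl3*, *Ccl4* and *Xcl1*, the factor genes *Eomes* and *Tbx21* and the receptor genes *Klrd1* and *Klrk1*. The granzyme gene *Gzmb* (ENSMUSG00000015437, chromosome 14, 56258838 to 56262260, minus strand) had 1057, 856 and 956 CPM in T cells and 1049.7, 1091 and 993 CPM in NK-gated barcodes. It was not called (log2 fold change −0.18, SE 0.11, edgeR adjusted p 0.35). *Nkg7*, whose product supports the release of granules, had 1632, 1277 and 1833 CPM against 1419, 1503 and 1654 CPM and was not called either. *Ccl5*, encoding a chemokine, was higher in T cells, with 5730.2, 5581 and 7449 CPM against 2326, 2674 and 4153 CPM (log2 fold change 0.99, SE 0.20, adjusted p 0.0026, higher in 3 of 3 libraries). *Gzma*, a second granzyme gene, was lower, at 1317, 1379.6 and 818 CPM against 3645, 4139.7 and 4995 CPM (log2 fold change −1.92, SE 0.16, adjusted p 4.7e-07, lower in 3 of 3 libraries). *Xcl1*, whose chemokine draws cDC1s, stood at 105, 479.8 and 176 CPM against 1902, 1885 and 1655 CPM, and fell by 2.80 on the log2 scale (SE 0.29, adjusted p 4.5e-06) in 3 of 3 libraries.

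The effector genes *Gzmk*, *Gzmc*, *Prf1*, *Eomes* and *Cx3cr1* were named after their values were seen. *Gzmk* was at 165, 118 and 140.4 CPM in T cells and at 2.33, 2.65 and 3.38 CPM in NK-gated barcodes (log2 fold change 5.60, SE 0.21, adjusted p 2.1e-11, higher in 3 of 3 libraries). *Gzmc* showed the reverse, with 2.99, 27.8 and 34.2 CPM against 1624, 1655 and 1169.5 CPM (log2 fold change −5.97). *Prf1*, the gene of the pore protein perforin, gave 62.9, 49.7 and 51.2 CPM against 338, 324 and 361 CPM (log2 fold change −2.72, SE 0.15, adjusted p 1.5e-09, lower in 3 of 3 libraries). *Eomes*, a factor of NK cells and memory T cells, had 24.0, 43.9 and 55.0 CPM against 139, 159 and 143 CPM. *Cx3cr1*, a receptor gene of circulating effector T cells, had 35.9, 67.3 and 38.0 CPM against 8.85, 2.98 and 8.16 CPM.

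**Figure D3:**
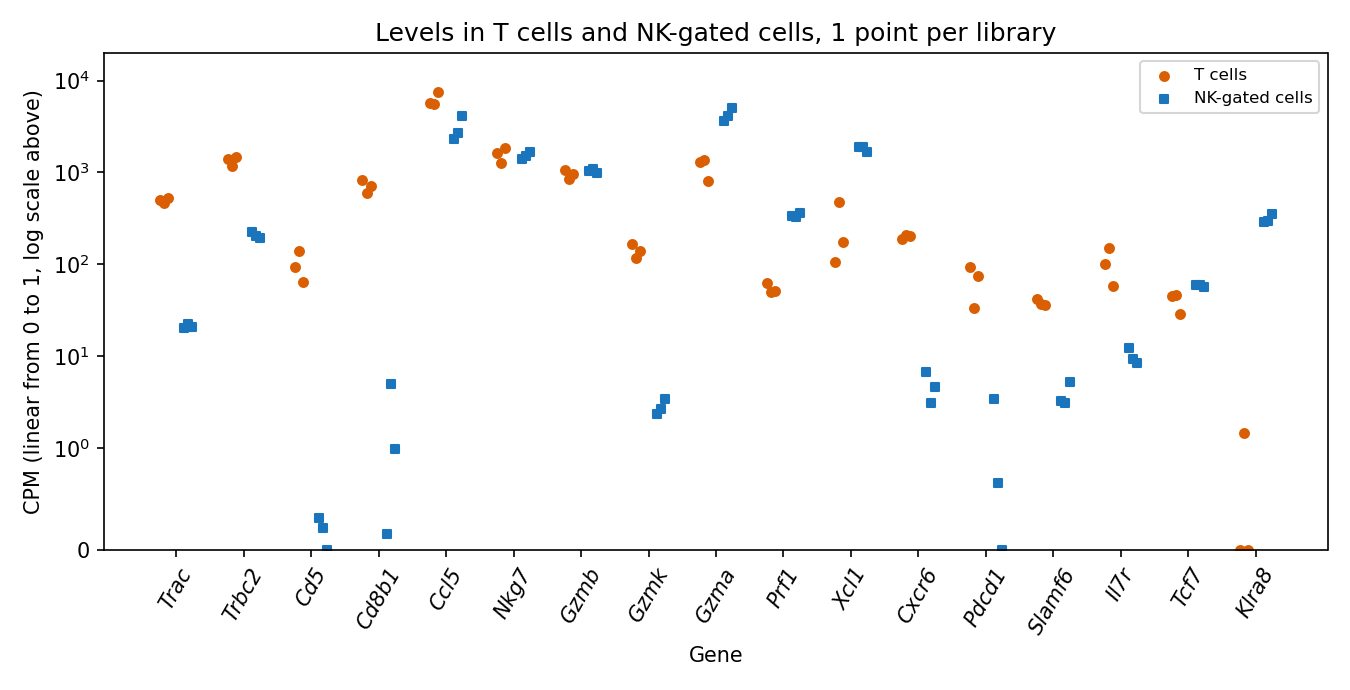
Levels of 17 genes (CPM, vertical axis, linear from 0 to 1 and log scale above) in T cells (circles) and NK-gated barcodes (squares), with 1 point per library. *Gzmb* overlaps between the populations at 856 to 1091 CPM, while *Gzmk* and *Cxcr6* lie higher and *Gzma*, *Prf1* and *Xcl1* lower in T cells of every library.

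Genes of naive, central memory and stem-like T cells were split. Of 11 tested, 5 were higher in T cells (*Ccr7*, *Id3*, *Il7r*, *S1pr1* and *Slamf6*) and 2 lower, among them *Tcf7*, with a median log2 fold change of 0.56. The direction of this median turned in thinned cells, where it was −0.64. *Il7r*, the interleukin 7 receptor gene of long-lived T cells, had 102, 149 and 58.8 CPM against 12.3, 9.37 and 8.36 CPM (log2 fold change 3.36, SE 0.25, edgeR adjusted p 9.2e-08, higher in 3 of 3 libraries). *Slamf6*, a surface marker of stem-like CD8 T cells named after its values were seen, was at 41.9, 36.6 and 36.1 CPM against 3.26, 3.09 and 5.17 CPM. *Tcf7* (ENSMUSG00000000782, chromosome 11, 52252371 to 52283014, minus strand), which encodes the stem-like factor TCF1, had 44.9, 46.8 and 28.5 CPM against 60.1, 59.1 and 56.9 CPM. The log2 fold change of −0.60 (SE 0.17, adjusted p 0.029, lower in 3 of 3 libraries) did not stay past the threshold when any library was left out. It was −0.64 without WT, −0.77 without *sGsn-/-* and −0.46 without *sGsn-/- Clec9a-/-*. The call also ended with thinning (−0.93), without doublet-scored or class II rich barcodes (both −0.48), for CD8 T cells alone (−0.61) and with library size without TMM (−0.55), while the direction held in each.

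Inhibitory receptor genes, which mark repeated stimulation, leaned towards T cells. Of 11 tested, 4 were higher (*Btla*, *Ctla4*, *Havcr2* and *Pdcd1*) and 1 lower (*Cd244a*), with a median log2 fold change of 0.69. *Pdcd1* (ENSMUSG00000026285, chromosome 1, 94038305 to 94052553, minus strand), the gene of PD-1, gave 92.8, 33.6 and 74.0 CPM in T cells against 3.41, 0.662 and 0 CPM. The log2 fold change was 5.43 (SE 0.56, edgeR adjusted p 4.2e-06), higher in 3 of 3 libraries. *Ctla4* was at 68.9, 87.8 and 28.5 CPM against 20.2, 14.3 and 13.5 CPM. *Cd160* and *Nr4a2* were not called, but *Nr4a2* was called lower in T cells when thinned (−0.50), without class II rich barcodes (−0.45) and without the filter on low counts (−0.36).

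Activation genes included 6 higher and 2 lower of 14 tested, with a median log2 fold change of 0.57. *Il2rb*, a receptor subunit for interleukins 2 and 15, was lower, with 174, 205 and 254 CPM against 619, 633 and 659 CPM (log2 fold change −1.62, SE 0.14, edgeR adjusted p 4.9e-07, lower in 3 of 3 libraries). The costimulatory receptor gene *Tnfrsf9* was also lower, at 195, 83.4 and 62.6 CPM against 245, 232 and 223 CPM. *Icos* and *Tnfrsf4*, costimulatory genes named after their values were seen, were higher. *Icos* had 213, 206 and 131 CPM against 44.8, 41.2 and 31.8 CPM. For *Tnfrsf4*, at 29.9, 57.1 and 28.5 CPM against at most 1.39 CPM, only 14 T cells held a UMI, and 2 of these were CD8. *Ltb*, which encodes a lymphotoxin subunit that shapes lymphoid tissue, had 551, 427 and 463 CPM against 142, 144 and 127 CPM (log2 fold change 1.74, SE 0.11, adjusted p 1.3e-08, higher in 3 of 3 libraries). It belonged to a list of helper cytokines and lineage factors in which 6 of 12 were higher and 1, *Runx3*, was lower. The lineage factor gene *Rora*, named after its values were seen, gave 95.8, 130.2 and 102 CPM against 24.2, 20.7 and 16.7 CPM.

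Receptors that place lymphocytes in tissue also differed between T cells and NK cells. Of 12 trafficking genes tested, 6 were higher in T cells (*Cxcr3*, *Cxcr4*, *Cxcr6*, *Itgae*, *Itgb7* and *S1pr4*) and 1, *Ccr2*, was lower. *Cxcr6* (ENSMUSG00000048521, chromosome 9, 123806475 to 123811760, plus strand) and *Cxcr3* were named after their values were seen. *Cxcr6*, whose ligand CXCL16 is made by dendritic cells, was at 189, 208 and 205 CPM in T cells and at 6.67, 3.09 and 4.58 CPM in NK-gated barcodes. Its log2 fold change was 5.40 (SE 0.20, edgeR adjusted p 1.5e-11), higher in 3 of 3 libraries. *Cxcr3*, the receptor gene for CXCL9 and CXCL10, had 144, 92.2 and 112 CPM against 32.1, 26.7 and 34.4 CPM. *Cxcr6* was seen in 59.9% of T cells and 0.105% of cDC1s, or 36.3% and 0 after thinning.

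Interferon-induced genes were mostly called higher in T cells. Of 14 tested, 10 were higher and 0 lower, with a median log2 fold change of 1.17, and 8 were called without the *sGsn-/-* library, which had the highest *Isg15* level. Over all genes of the run without that library, 556 of 9505 were called. *Isg15*, a ubiquitin-like modifier gene, had 119.8, 266 and 121 CPM in T cells against 63.0, 54.1 and 52.5 CPM (log2 fold change 1.62, SE 0.20, edgeR adjusted p 3.5e-05, higher in 3 of 3 libraries). *Bst2*, the gene of the virus tether tetherin, stood at 350.3, 359.9 and 233 CPM against 149, 139 and 149 CPM. *Ifi203* lost its call without the *sGsn-/-* library, where its log2 fold change was 0.40 in place of 0.57.

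Calls of cell cycle genes varied with the run. Of 16 tested, 2 were higher in T cells and 0 lower, with a median log2 fold change of 0.23, while in thinned cells 7 of 15 were higher with a median of 0.69. Over all genes of the thinned run, 305 of 6541 were higher. Thinning also left out the shallowest cells, and the cause of the change was not tested. *Mki67*, a marker of dividing cells, had 117, 256 and 123 CPM in T cells against 157, 140.4 and 135 CPM and was not called (log2 fold change 0.23, SE 0.19, edgeR adjusted p 0.50). In thinned cells it was called at 0.81, as were *Pclaf* at 0.91 and *Tubb5* at 0.66. *Pclaf* was also called with the library as a block (0.41), without doublet-scored barcodes (0.51), without class II rich barcodes (0.54) and for CD8 T cells alone (0.61), and *Tubb5* for CD8 T cells alone (0.35). *Hmgb2*, a chromatin protein gene, was higher at 2584, 2151 and 2122 CPM against 1846, 1516 and 1575 CPM (log2 fold change 0.42, SE 0.11, adjusted p 0.020, higher in 3 of 3 libraries). That call was lost without any 1 of the libraries, with values of 0.42 without WT, 0.42 without *sGsn-/-* and 0.40 without *sGsn-/- Clec9a-/-*. Both *Mki67* and *Top2a* were found in 43 of 177 T cells, 24.3% (18.2% to 31.3%), against 15.0% of NK-gated barcodes and 1.17% of cDC1s. At equal depth these shares were 13.7%, 7.33% and 0.107%. The paper left out proliferating cells before it listed cDC1s, so the low cDC1 shares were set in part by that choice. The T cells with both genes numbered 11 of 34 in WT, 16 of 75 in *sGsn-/-* and 16 of 68 in *sGsn-/- Clec9a-/-*, and 37 of the 43 also held *Gzmb*.

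MHC class II genes were also compared with the NK-gated barcodes. With all T cells, 9 of 12 genes of the class II and dendritic cell sort list were higher than in NK-gated barcodes and 1, *Ptprc*, was lower. *Ptprc* lost its call without WT (−0.37), without *sGsn-/-* (−0.39), in thinned cells (−0.38), without doublet-scored barcodes (−0.29) and without class II rich barcodes (−0.28). Without class II rich barcodes in either population, 3 of 10 tested were higher, a drop that follows in part from choosing those barcodes by 4 genes of this list. Over all genes of that run, 586 of 9268 were higher. *H2-Ab1* had 1446, 1975 and 1087 CPM in T cells against 579.9, 522 and 467 CPM, with a log2 fold change of 1.47 (SE 0.15, edgeR adjusted p 3.2e-06, higher in 3 of 3 libraries). Without the class II rich barcodes it was 0.32 and no longer called. *Ly6c2* and *Irf8*, named after their values were seen, kept their calls. *Ly6c2* gave 1218, 1141 and 1342 CPM in T cells against 62.1, 67.8 and 80.0 CPM. *Irf8*, a factor of dendritic and NK cells, gave 138, 196 and 55.0 CPM against 741, 798 and 729.9 CPM, and 65.1, 58.5 and 33.1 CPM in T cells that were not class II rich.

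The CD8 T cells were next described cell by cell for genes of the stem-like and effector states. *Tcf7* was seen in 29 of 139 CD8 T cells, or 20.9% (14.4% to 28.6%), and *Gzmb* in 119, or 85.6% (78.7% to 91.0%). Both genes were found in 21 of them, 15.1% (9.60% to 22.2%), and 12 held neither. By library, *Tcf7* was found in 9 of 28 CD8 T cells in WT, 32.1% (15.9% to 52.4%). The numbers were 13 of 55 in *sGsn-/-*, 23.6% (13.2% to 37.0%), and 7 of 56 in *sGsn-/- Clec9a-/-*, 12.5% (5.18% to 24.1%). By share of cells, WT was highest and *sGsn-/- Clec9a-/-* lowest, the 3 intervals overlapped, and a difference between genotypes was not tested. Median UMIs of CD8 T cells fell in the same order, at 8148.5, 6385 and 5967.5, as did the *Tcf7* shares of NK-gated barcodes (40.0%, 37.2% and 30.6%). By level, *sGsn-/-* was highest, with 43.4, 51.6 and 23.5 CPM of *Tcf7* in CD8 T cells of the 3 libraries. In cDC1s, 0.665% held *Tcf7* and 4.08% held *Gzmb* at a median of 13568 UMIs, against 22.6% and 78.5% of all T cells at 6481. This background was highest in *sGsn-/-*. In the order of WT, *sGsn-/-* and *sGsn-/- Clec9a-/-*, *Tcf7* was held by 0.305%, 1.49% and 0.344% of cDC1s and *Gzmb* by 2.35%, 8.24% and 2.35%. Thinned to equal depth, *Tcf7* was seen in 8.33% of T cells, 15.1% of NK-gated barcodes and 0.302% of cDC1s, and *Gzmb* in 67.9%, 69.5% and 0.923%.

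*Pdcd1* was found in 38 CD8 T cells, 27.3% (20.1% to 35.5%), of which 31 also held *Gzmb* and 9 also held *Tcf7*. By library it was seen in 12 of 28 CD8 T cells in WT, 9 of 55 in *sGsn-/-* and 17 of 56 in *sGsn-/- Clec9a-/-*. As shares these were 42.9% (24.5% to 62.8%), 16.4% (7.77% to 28.8%) and 30.4% (18.8% to 44.1%), and their intervals overlapped. Whether the genotypes differ was not tested. The background in cDC1s was 3.57%, or 0.888% after thinning, where 14.9% of T cells held the gene. *Ifng*, the gene of interferon gamma, was seen in 76 of the 139 CD8 T cells, and *Gzmk* in 77. In cDC1s their shares were 0.787% and 0.105%.

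CD8 and CD4 T cells were then compared, since the balance of killing and helping or regulating cells within the population had 2 classes of very unequal size. The CD4 sums rested on 1 cell in WT, 6 in *sGsn-/-* and 1 in *sGsn-/- Clec9a-/-*, or 4392, 45289 and 5570 UMIs. Of the *sGsn-/-* sum, 27262 UMIs came from 1 barcode that was class II rich and doublet-scored. In these sums 3 UMIs correspond to 683, 66.2 and 539 CPM, so CD4 levels below these rest on fewer than 3 UMIs. The CD8 sums were 276713, 503656 and 426307 UMIs. In WT and *sGsn-/- Clec9a-/-* a single CD4 T cell thus stood in for a replicate, so the calls below describe these cells and do not show how CD4 T cells differ between animals, and no adjusted p is given for a gene. Thinning left CD4 T cells in *sGsn-/-* only, 3 in number, so the thinned run had no CD4 replicate. The genes that set the classes were left out, and of 2202 genes tested 92 were higher in CD8 T cells (4.18%) and 66 were lower (3.0%). The filter on low counts let a gene enter on its CD8 sums alone. With no UMI in CD4 T cells such a gene could only be called higher in CD8 T cells. The split of calls, here and in the lists below, was thus set in part by the filter. The median log2 fold change of all genes was 0.22, against −0.05 with library size alone and 0.12 with the size factors of DESeq2, so the values below are to be read relative to these shifts. The balance of the calls also turned with the run, from 92 higher and 66 lower to 70 and 128 with library size alone, 87 and 91 with the size factors of DESeq2 and 98 and 9 without *sGsn-/-*. Every count here was unstable, with 101 genes called without WT, 107 without *sGsn-/-* and 85 without *sGsn-/- Clec9a-/-*, 82 in DESeq2 and 32 with the library as a block. DESeq2 gave no adjusted p for 1071 of the 2202 genes. These count as not called, so a call lost in DESeq2 in this comparison can mean a gene that was not judged. Without class II rich barcodes, 68 were called.

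Of 13 effector genes tested, 6 were called higher in CD8 T cells, 0 lower and 7 not called, with a median log2 fold change of 1.04. *Ifng* lay the other way at −0.46 and was not called. *Ccl5* had 6696, 6574 and 8386 CPM in CD8 T cells and 0, 177 and 2513 CPM in CD4 T cells (log2 fold change 4.14, higher in 3 of 3 libraries). *Gzmb* had 1259 UMIs in CD8 and 3 in CD4 T cells, a 19.2-fold ratio with a counting interval of 6.56 to 93.3. *Gzma* had 1353 UMIs against 1, a 62.0-fold ratio (11.1 to 2449). *Nkg7* was at 1847, 1551 and 1912 CPM against 1138, 177 and 718 CPM (log2 fold change 2.61, higher in 3 of 3 libraries). *Gzmk*, at 184, 149 and 169 CPM in CD8 T cells, had no UMI in CD4 T cells and was at least 3.02-fold higher. Its call was lost in DESeq2, with the library as a block and without the *sGsn-/-* library.

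Of 13 cell cycle genes tested, 10 were called higher in CD8 T cells and 0 lower, against 6 with the library as a block and 5 in DESeq2. Several of these calls rest on 0 to 2 UMIs in CD4 T cells, and a gene at 0 there could only be called higher in CD8 T cells. *Hmgb2* gave 2869, 2712 and 2287 CPM against 1138, 331 and 718 CPM (log2 fold change 2.72, higher in 3 of 3 libraries). The histone genes *Hist1h2ae* and *Hist1h3c*, read mainly when DNA is copied, had no UMI in CD4 T cells and were at least 15.4-fold and 6.53-fold higher. *Stmn1*, a tubulin regulator gene, had 849 UMIs against 2, a 19.4-fold ratio (5.36 to 161). *Mki67* had 267 against 2, a 6.11-fold ratio (1.68 to 50.7), and its log2 fold change of 2.71 did not stay called in other runs. These were without *sGsn-/-* (1.22), in DESeq2 (2.39), as a block (2.98) and without doublet-scored (2.84) or class II rich barcodes (2.90). *Birc5*, *Rrm2*, *Lig1*, *H2afx*, *Pa2g4*, *Siva1* and *Gimap7* also had no UMI in CD4 T cells, with bounds between 2.44-fold and 3.79-fold. All 7 lost their calls in DESeq2 and without the *sGsn-/-* library, which held 6 of the 8 CD4 T cells. *H2afx*, *Lig1*, *Pa2g4*, *Rrm2* and *Siva1* also lost them with the library as a block and without doublet-scored or class II rich barcodes. *Rrm2* and *Siva1* lost them without *sGsn-/- Clec9a-/-* as well.

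Some regulatory and costimulatory genes were called higher in CD4 T cells, but the named calls in *Tnfrsf18*, *Capg*, *Ctla4* and *Icos* were all lost with the library as a block (log2 fold changes −1.33, −1.79, −2.10 and −1.25). In thinned cells, without a CD4 replicate, *Capg* was at −1.56. *Ctla4* was also lost in DESeq2 (−2.24). *Tnfrsf18*, the gene of the costimulatory receptor GITR, had 228, 640.3 and 539 CPM in CD4 T cells and 169.9, 155 and 159.5 CPM in CD8 T cells (log2 fold change −1.64). It was lower in CD8 T cells in 3 of 3 libraries, but the WT value of the CD4 T cell rests on fewer than 3 UMIs. Without the *sGsn-/-* library this was −0.47 and not called. *Capg*, an actin-capping protein gene often high in regulatory T cells, had 1366, 464 and 898 CPM against 166, 139 and 183 CPM (log2 fold change −1.66). *Ctla4* had no UMI in the WT CD4 T cell and 397 and 179.5 CPM in the other libraries, against 50.6, 75.4 and 25.8 CPM in CD8 T cells. *Icos* stood at 455, 486 and 359 CPM in CD4 T cells against 206, 133 and 124 CPM, and its call was lost without *sGsn-/-* (log2 fold change −0.52) and without *sGsn-/- Clec9a-/-* (−1.39). Among genes lower in CD8 T cells, the largest differences in the run with all cells were in *Ldlrad4*, *AA467197* and *Tiam1*, each with 8 to 53 UMIs in CD4 T cells and a log2 fold change of −3.83, −3.80 and −3.71. *AA467197* lost its call without doublet-scored barcodes (−2.03), without class II rich barcodes (−2.27) and without *sGsn-/-* (−2.37). In thinned cells, without a CD4 replicate, its log2 fold change was −0.24. *Ldlrad4* and *Tiam1* lost their calls in DESeq2 at similar sizes (−4.01 and −3.91). *H2-Ab1* and *H2-Eb1* were called lower in CD8 T cells, at −0.85 and −0.90. These values turned to 3.19 and 2.72 without the *sGsn-/-* library, the library of the only class II rich CD4 T cell.

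The 28 T cells with neither *Cd4* nor a *Cd8* gene all held *Trac*, *Trbc1* or *Trbc2*, as did 93.2% of NK-gated barcodes. Gamma delta receptor genes gathered in this class. *Trdc* was seen in 13 T cells, of which 8 had neither coreceptor and 5 were CD8, and a *Tcrg-C* gene in 19, of which 12 and 7. In cDC1s the shares were 0.297% for *Trdc* and 0.105% for a *Tcrg-C* gene, against 7.34% and 10.7% of T cells. NK-gated barcodes also transcribe *Trdc*, in 33.1%, but hold a *Tcrg-C* gene in 4.43%. *Trdc* was at 74.8, 90.7 and 89.2 CPM in T cells against 54.3, 52.2 and 48.4 CPM in NK-gated barcodes (log2 fold change 0.70, SE 0.14, edgeR adjusted p 0.0026, higher in 3 of 3 libraries). It turned to −2.10 for CD8 T cells alone, and lost its call without class II rich barcodes (0.40), in thinned cells (0.66), without *sGsn-/-* (0.67) and without *sGsn-/- Clec9a-/-* (0.58). *Tcrg-C2* had 24 UMIs in T cells against 1 in NK-gated barcodes, a 319-fold ratio (52.0 to 13124). *Trdc* without *Trac* was found in 4 T cells.

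*Il17a* (ENSMUSG00000025929, chromosome 1, 20730905 to 20734496, plus strand), the gene of an inflammatory cytokine of helper and gamma delta T cells, rested on very few cells. It was found in 3, all with neither coreceptor and 1 in each library. The *sGsn-/-* cell held 304 of the 310 UMIs among 7013 in all, together with 28 UMIs of *Areg* and 18 of *Trdc*. The WT cell was class II rich with 3 UMIs, and the *sGsn-/- Clec9a-/-* cell had 3 UMIs with 15 of *Trdc*. No UMI was seen in 1966 NK-gated barcodes or in 5715 cDC1s. The summed counts gave at least 1374-fold more in T cells than in NK-gated barcodes, a call that was lost in DESeq2 although the estimate there was of similar size. *Foxp3* (ENSMUSG00000039521, chromosome X, 7573644 to 7595245, plus strand), the defining gene of regulatory T cells, was seen in 4 T cells. These were 2 CD4 T cells with 2 UMIs each and 2 with neither coreceptor with 2 and 7 UMIs, and the cell with 7 was class II rich. The WT library held 1, the *sGsn-/-* library 3 and the *sGsn-/- Clec9a-/-* library 0 of 68. No cDC1 or NK-gated barcode held *Foxp3*.

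Between genotypes, levels in T cells were compared to ask what changed without secreted gelsolin, and what changed further without *Clec9a*. Each genotype had 1 library of pooled mice, so these are ratios with exact Poisson 95% intervals and no test. Genes at 100 CPM or more in at least 1 of the 2 libraries were counted as past the fold at 2-fold or more. In *sGsn-/-* against WT, 24 of 1595 genes were higher (1.50%) and 8 were lower (0.502%), and the median absolute log2 ratio was 0.21. In *sGsn-/- Clec9a-/-* against *sGsn-/-*, 6 of 1533 were higher (0.391%) and 42 were lower (2.74%), with a median absolute log2 ratio of 0.23. Both counts depended on how cells were summed: thinned cells gave 181 and 119 genes in place of 32 and 48, and equal weights for CD8, CD4 and other T cells gave 547 and 487. With equal weights the direction turned in *sGsn-/-* against WT, with 188 higher and 359 lower, and *sGsn-/- Clec9a-/-* against *sGsn-/-* was near even, with 236 higher and 251 lower. These weights gave 1 CD4 T cell of 4392 UMIs in WT, and 1 of 5570 UMIs in *sGsn-/- Clec9a-/-*, as much say as all CD8 T cells of its library. Without class II rich barcodes the splits were 19 and 15, and 3 and 33. The cause was not tested.

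Most of the largest ratios came from single cells. *Cxcl9*, the gene of a ligand of CXCR3, had 208 UMIs in *sGsn-/-* T cells and 0 in WT, of which 126 were in 1 class II rich CD4 T cell. Without the 16 class II rich barcodes, *Cxcl9* in *sGsn-/- Clec9a-/-* against *sGsn-/-* went from a log2 ratio of −5.24 to 0.11. The latter compares 1 UMI with 1 UMI, which is too few to show a direction. *Areg*, a growth factor gene of tissue repair, had 72 UMIs in *sGsn-/-* against 1 in WT, 41 of them in 1 class II rich cell. *Ptcra*, the gene of the pre-T alpha chain, which plasmacytoid dendritic cells also transcribe, had 54 UMIs in 1 class II rich WT cell and 1 in *sGsn-/-*. *Spp1*, a macrophage gene, had 80 UMIs in WT, 76 of them in 1 class II rich cell, and 21 in *sGsn-/-*. That WT cell also held 74 UMIs of *Lyz2*. *Olfr1369-ps1*, annotated as protein-coding, had 50 and 8, with 45 in 1 WT cell. *Lyz2* and *Cd9*, with 74 and 29 WT UMIs in 1 cell, turned direction in *sGsn-/-* against WT when class II rich barcodes were removed, from −1.45 to 1.13 and from −1.29 to 0.05. In *sGsn-/- Clec9a-/-*, 1 class II rich cell held both 55 of 60 UMIs of *Fn1* and 233 of 280 of *Lyz2*. In *sGsn-/-*, 1 class II rich cell held 94 of 101 UMIs of *Apoe*, and another class II rich cell held 74 of 158 of the heat shock gene *Hspa1a*.

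Other ratios came from more than a few T cells, though not all of them held. The histone gene *Hist1h2ab* was at 127 CPM (102 to 157) in *sGsn-/-* and 15.0 CPM (4.86 to 34.9) in WT, from 11 and 5 cells, with at most 17 UMIs in 1 cell. *Basp1*, a membrane protein gene, had 69 UMIs in *sGsn-/-* over 10 cells against 4 in each of the other libraries, but most of the UMIs were in class II rich barcodes. Against WT its log2 ratio went from 3.02 to 0.15 without those barcodes and to −0.92 in thinned cells, and *sGsn-/- Clec9a-/-* against *sGsn-/-* went from −3.65 to −1.36 and to 0.94. *Mcm5*, a subunit of the DNA replication helicase, was at 129 CPM (100.2 to 164) in *sGsn-/- Clec9a-/-* and 62.9 CPM (45.5 to 84.7) in *sGsn-/-*, from 27 and 22 cells. Its log2 ratio of 1.03 fell below 2-fold in thinned cells (0.50), CD8 T cells alone (0.57) and without class II rich (0.77) or doublet-scored barcodes (0.95). *Gm42418*, which overlaps ribosomal RNA sequence, had 29510 CPM against 11730 CPM in the same pair and was found in all 68 and all 75 T cells. *AC149090.1* had 161 CPM (129 to 199) against 68.8 CPM (50.5 to 91.4).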

How the data were processed

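The values are counts per the file headers of the deposited matrices, which name Cell Ranger 6.0.1 and mm10, and the authors' labels name Seurat 4.0.0. Gene positions are from GENCODE M21 (GRCm38). Counting used Python 3.11.15 with numpy 2.4.6, scipy 1.17.1, pandas 2.3.3 and scanpy 1.11.5, and testing used R 4.3.3 with edgeR 4.0.16 and DESeq2 1.42.0. The 38 duplicated symbols were kept apart by Ensembl ID, and the listed symbols *Folr4*, *Scart1* and *Scart2* were not in the features. UMIs were summed per library and population and tested by the edgeR quasi-likelihood F-test after TMM scaling and filterByExpr, with Benjamini-Hochberg adjustment. The scripts were tested on simulated data. Same-library r for T cells and NK-gated barcodes was low, at 0.0256, 0.0207 and 0.0926, and libraries were not taken as a block there. The *sGsn-/- Clec9a-/-* value of 0.0926 exceeded all those across libraries, which reached 0.0508. With the block, 752 genes were higher and 636 lower in T cells. For CD8 and CD4 T cells same-library r was 0.0217, 0.139 and 0.0412. The *sGsn-/-* value of 0.139 exceeded all those across libraries, so runs with the block are given beside that comparison. Intervals cover counting error only.

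The 6% of barcodes with the highest Scrublet score in each library were taken as doublets and kept, with a run without them as an alternative. For thinning, UMIs were drawn at random down to 2673 per cell, and shallower cells were left out. Other alternatives were DESeq2, other scalings and filters, libraries as a block, each library left out, stricter *Cd3*, no class II rich barcodes and CD8 T cells alone. Named genes were those of highest mean CPM in each list with its defining gene, the 10 largest and 10 smallest fold changes past the threshold, and the 5 largest and 5 smallest genotype ratios. A further 17 genes were named after their values were seen. The members and lists were chosen with earlier results of these data known.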

Additional observations from a re-analysis of the deposited data

How the results depend on the processing

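Calls in T cells against NK cells ran from 556 to 946 with libraries left out, and were 561 thinned and 1768 without the filter on low counts. In CD8 against CD4 T cells they ran from 85 to 107 with libraries left out, and were 82 in DESeq2, 291 without the filter, 32 as a block, 42 thinned (with CD4 T cells in 1 library only, without a replicate), 68 without doublet-scored and 68 without class II rich barcodes. T cells numbered 367 with no gene required at 0. The CD4 share was 1.79% thinned and 1.69% at 2 UMIs. It was 0 in WT by both, 2.67% in *sGsn-/-* at 2 UMIs and 0 in *sGsn-/- Clec9a-/-* thinned. The share with neither was 23.2% thinned. Genotype counts were 181, 141 and 547 (*sGsn-/-* against WT) and 119, 134 and 487 (*sGsn-/- Clec9a-/-* against *sGsn-/-*) for thinned cells, 50 CPM and equal class weights. The equal weights rest on 1 CD4 T cell in WT and 1 in *sGsn-/- Clec9a-/-*. Log2 values that turned direction in *sGsn-/-* against WT were *Basp1* −0.92 thinned, *Lyz2* 1.40 without doublets and 1.13 without class II rich barcodes, and *Cd9* 0.39 and 0.0487, or 0.0836 at equal weights. In *sGsn-/- Clec9a-/-* against *sGsn-/-*, *Basp1* was 0.94 thinned and *Cxcl9* 0.19 without doublets. Without class II rich barcodes, *Ptcra* (2.33 in *sGsn-/-* against WT) and *Cxcl9* (0.11 in *sGsn-/- Clec9a-/-* against *sGsn-/-*) rested on at most 1 UMI per library. That is too few to show a direction. *Trdc* against NK cells was −2.10 in CD8 T cells. In CD8 against CD4 T cells the values that turned were *Cd74* 2.44 without *sGsn-/-*, *Gadd45b* 1.61, *Rgcc* 0.60 and *Rora* 0.67 thinned, *H2-Ab1* 0.41 as a block, −1.10 to 3.19 with libraries left out, 2.91 thinned and 1.13 without doublets, and *H2-Eb1* 0.23, −1.02 to 2.72, 1.66 and 1.51 in the same order. Thinned values of this comparison rest on CD4 T cells of 1 library, without a replicate. The cause was not tested.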

Other observations

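Variable segments of the T cell receptor were read in a minority of T cells. A *Trbv* segment was found in 55 T cells (31.1%), 49 of them with exactly 1, against 1 NK-gated barcode and 0 cDC1s. In all 19 of 35 segments were seen, and *Trbv12-2* and *Trbv29* led with 8 cells each. A *Trav* segment was found in 43 T cells (24.3%), 42 with exactly 1, against 24 NK-gated barcodes (1.22%) and 0 cDC1s. Near-identical copies make the assignment of *Trav* reads uncertain. *Trgv2* was seen in 12 T cells and in 0 NK-gated barcodes.

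Transcripts of the X and Y chromosomes showed pools of both sexes. Among T cells with either Y-linked transcripts or *Xist* but not both, the Y-linked were found in 13.8% (3.89% to 31.7%) in WT, 17.7% (9.20% to 29.5%) in *sGsn-/-* and 29.4% (17.5% to 43.8%) in *sGsn-/- Clec9a-/-*. The intervals overlapped.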
